A study of Mus musculus with 14 samples.

Results

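The nuclear genes for the subunits of the 5 oxidative phosphorylation complexes were followed in mouse pancreatic islets. A gene was taken as a member where its symbol on the platform began with Atp5, with Cox4 to Cox8, with Uqcr, or with Nduf followed by a, b, c, s or v, and likewise for Cyc1 and the 4 Sdh genes from Sdha to Sdhd. The complex I assembly factors, whose symbols start with Ndufaf, were left out. The rule gave 82 of the 18820 genes measured: 34 of complex I, 4 of complex II, 8 of complex III, 19 of complex IV and 17 of complex V. The rule reads gene symbols and no signals, although it was proposed with results of these data known. The 23 members with more than 1 probe set were represented by the brightest over all arrays. Cox7c, Ndufa13, Ndufb1, Ndufb4b, Ndufb4c and Uqcrc2, which lack a probe set annotated to them alone, were not analysed here, and neither were the 13 subunits encoded in mitochondrial DNA.

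Islets came from 14 mice, 1 array for each. Wild-type C57BL/6 mice (WT) and mice lacking both Tlr2 and Tlr4 on a C57BL/6 background (double knockout, DKO) ate a diet with 60% fat, 20% carbohydrate and 20% protein from 6 weeks of age, for 5 weeks (4 WT and 2 DKO) or 7 months (4 WT and 4 DKO). Every group was on this diet, so no group shows islets on ordinary chow, and the time on the diet cannot be told apart from the age of the mice. Tlr2 and Tlr4 are receptors for microbial products that start innate immune signalling. They were deleted in the whole animal and not in islet cells alone, and the labels name neither the C57BL/6 substrain nor whether WT and DKO mice were littermates.

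Oxidative phosphorylation is the last stage of fuel burning in mitochondria. Complex I takes electrons from NADH and complex II from succinate, complex III passes them to cytochrome c, complex IV gives them to oxygen, and complex V, the ATP synthase, makes ATP from the proton gradient that the pumping complexes build. In beta cells the ATP made from glucose closes potassium channels, which depolarises the cell and releases insulin, so these genes belong to the machinery by which an islet senses glucose.

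Values are log2 signals, in which a step of 1 is a doubling, and the median signal of an array lay between 3.89 and 3.98. Signals of different genes come from different probes and were not compared with each other. The isoform genes Cox6b2, Cox7a1, Cox7b2, Cox8b and Cox8c lay below the array median on all 14 arrays. The labelled tissue was checked with 9 beta cell markers, whose mean signal lay between 10.55 and 10.85 on the arrays. Tlr2 was lower in DKO islets, with a difference of -1.66 ± 0.12 at 5 weeks (DKO minus WT, with the SE of the linear model, as for all differences here) and -1.06 ± 0.10 at 7 months. Tlr4 lay between 2.70 and 3.60 on every array, below the array medians, and its differences of 0.35 ± 0.20 and 0.31 ± 0.16 did not pass the test, so this probe set does not check the Tlr4 deletion.

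Promoter sequences of the 3 complex I genes that differed between genotypes are shown because the results turn on these genes. They are the 250 bases before the transcription start in RefSeq's GRCm38.p6 annotation, written 5′ to 3′ on the strand of the gene. Capitals mark matches, on either strand, to motifs known from promoters of respiratory genes: GCGCA, any 1 base and GCGC for the factor NRF1, CCGGAAG for ETS factors and GGGCGG for Sp1. The windows are chr4:123718187-123718436 on the minus strand for Ndufs5, chr7:3617123-3617372 on the plus strand for Ndufa3 and chrX:37191239-37191488 on the minus strand for Ndufa1.
Ndufs5: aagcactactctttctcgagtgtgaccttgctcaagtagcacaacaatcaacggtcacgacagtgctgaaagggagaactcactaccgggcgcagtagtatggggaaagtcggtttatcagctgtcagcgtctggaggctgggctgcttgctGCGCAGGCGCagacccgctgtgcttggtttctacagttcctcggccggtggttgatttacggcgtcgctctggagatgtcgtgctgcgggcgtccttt
Ndufa3: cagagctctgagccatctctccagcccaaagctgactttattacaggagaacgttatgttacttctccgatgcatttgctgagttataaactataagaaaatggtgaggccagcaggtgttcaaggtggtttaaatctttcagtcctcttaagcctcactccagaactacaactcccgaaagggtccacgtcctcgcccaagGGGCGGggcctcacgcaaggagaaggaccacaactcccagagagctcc
Ndufa1: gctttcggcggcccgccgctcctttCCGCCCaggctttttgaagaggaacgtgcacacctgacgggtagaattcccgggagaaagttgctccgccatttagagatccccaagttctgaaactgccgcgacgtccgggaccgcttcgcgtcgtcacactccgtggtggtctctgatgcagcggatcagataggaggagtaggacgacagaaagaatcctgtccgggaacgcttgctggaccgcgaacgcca
The Ndufs5 window held 1 NRF1 match, and the Ndufa3 and Ndufa1 windows held 1 Sp1 match each, so no matches overlapped. A promoter entry was present for 67 of the 82 members. The NRF1 motif stood in 19.4% of these and in 4.23% of the 27025 genes of the promoter table, the ETS motif in 17.9% against 7.83%, and the Sp1 motif in 37.3% against 35.4%. Of the other members called in any comparison, Ndufa11 and Sdhd had an NRF1 match, Sdhd and Ndufb6 an ETS match, and Ndufb6 and Atp5pb an Sp1 match. The called members Atp5a1, Cox4i1, Cox6a2, Ndufa4l2 and Sdhc had no promoter entry and were not searched. A match describes the letters of the window and is no proof of a binding site.

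Most oxidative phosphorylation genes differed little between DKO and WT islets, and a single gene, Ndufs5 of complex I, stood far from the rest. At 5 weeks 2 of 82 members passed the test (limma, Benjamini-Hochberg adjusted p under 0.05 over all genes), Ndufa3 higher and Ndufs5 lower in DKO, beside 0.994% of all genes called, 0.499% higher and 0.494% lower. At 7 months 4 members passed, Ndufa3 and Ndufa1 higher and Ndufs5 and Sdhc lower, beside 4.71% of all genes, 2.44% higher and 2.27% lower. The 2 and 4 members are 2.44% and 4.88% of the 82, so the share at 7 months was near that of all genes, and the higher share at 5 weeks rests on 2 genes. An unadjusted p under 0.05 was reached by 19 members at 5 weeks, which is 23.2% against 12.1% of all genes, and by 16 at 7 months, 19.5% against 18.4%. The difference was within 0.25 of 0 for 58 members at 5 weeks and for 69 at 7 months, which is 70.7% and 84.1% of the members against 79.9% and 80.3% of all genes.

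**Figure D1:**
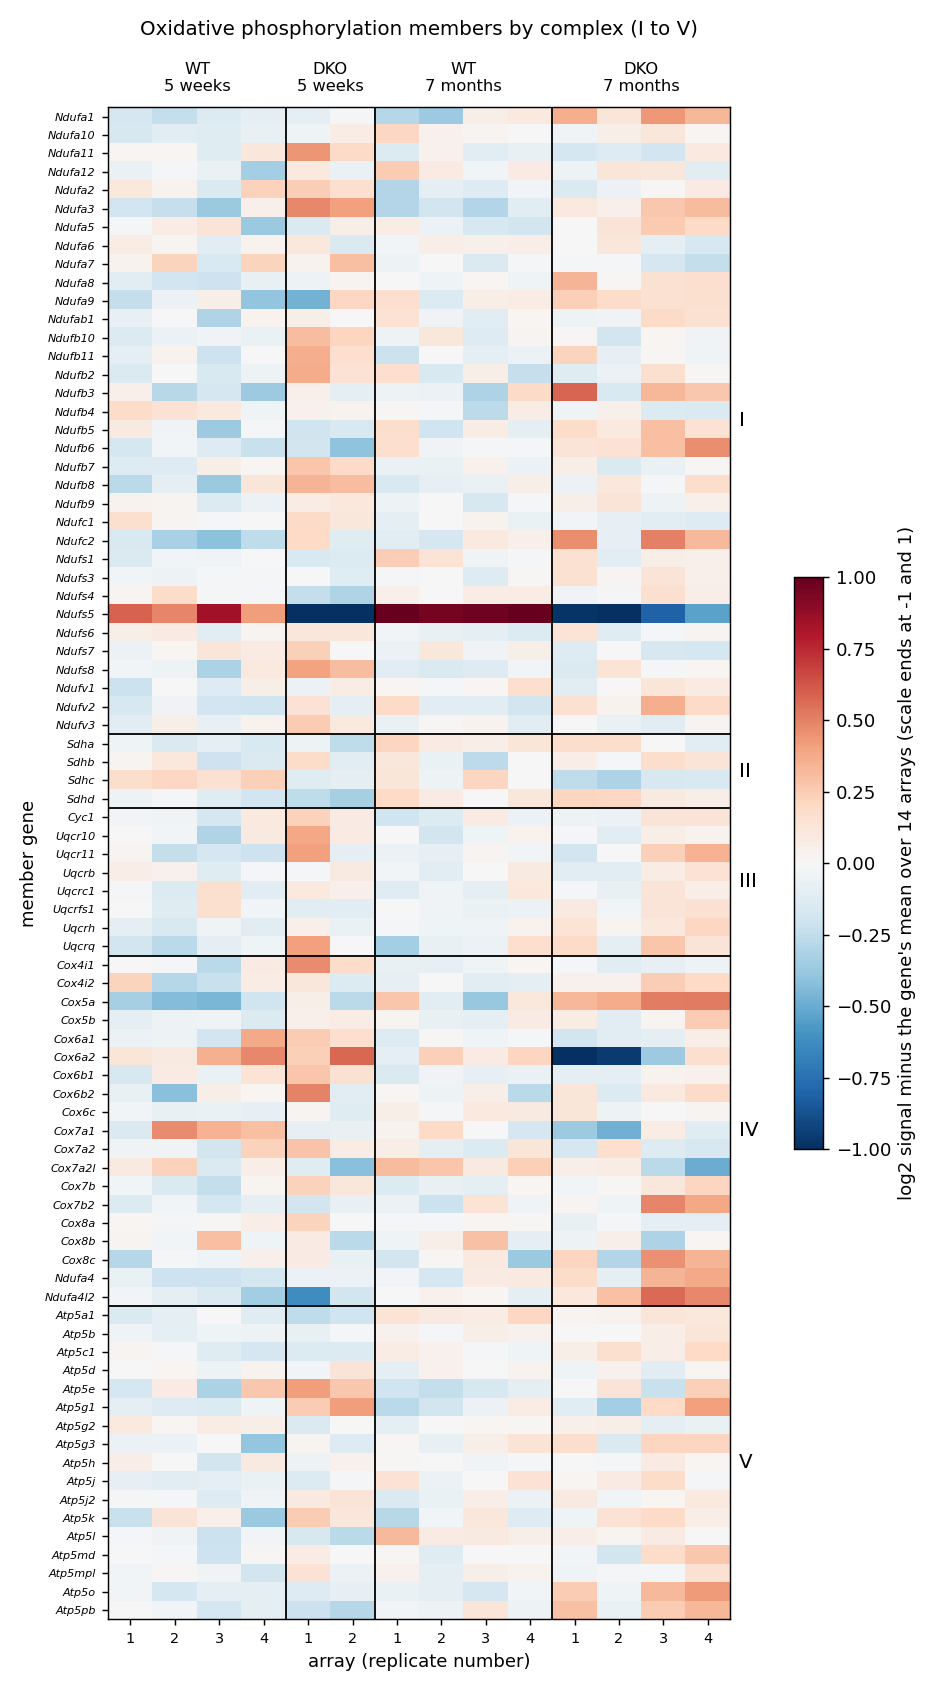
Each row is 1 of the 82 members, grouped by complex, and each column is 1 of the 14 arrays. Colour shows the log2 signal minus the mean of that gene over the 14 arrays, on a scale that ends at -1 and 1. Ndufs5 is low on all 6 DKO arrays and high on all 8 WT arrays, and Cox6a2 is below its mean on 3 of the 4 DKO arrays at 7 months.

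The small differences leaned upward in DKO islets. At 5 weeks 59 of 82 members lay above 0, which is 72% against 51.8% of all genes, with a median difference of 0.09 against 0.01. At 7 months 54 members lay above 0, which is 65.9% against 53.1%, with a median of 0.07 against 0.01. These counts depend in part on the probe set used. Among the 23 members with several, probe sets differed in sign for 4 at 5 weeks and 8 at 7 months. The median gap between probe sets of a gene was 0.06 and 0.07. By complex the medians at 5 weeks were 0.12 for complex I, -0.12 for complex II, 0.15 for complex III, 0.10 for complex IV and 0.01 for complex V. At 7 months they were 0.08, -0.01, 0.12, 0.06 and 0.08 in the same order. Genes picked by the symbols of ribosomal proteins gave medians of a like size. The median was 0.08 at both times for 83 genes of the cytosolic list. It was 0.08 and 0.11 for 74 genes of the mitochondrial list. Of these 74 genes 0 passed at 5 weeks and 2 were called higher at 7 months, beside 4.71% of all genes called. The largest difference of this list at 7 months was 0.86, for Mrpl20. Over time in DKO 1 gene of this list was called higher and 1 lower. The cytosolic list had 1 gene called higher at 5 weeks, and 2 higher and 1 lower at 7 months. The cytosolic list was drawn by symbol prefix alone, so it can hold genes that are no ribosomal proteins, among them the kinase gene Rps6ka5. The mean of all members, after centring each gene, lay between -0.09 and -0.02 on the 4 WT arrays at 5 weeks and at -0.01 and 0.06 on the 2 DKO arrays. At 7 months it lay between -0.02 and 0.01 in WT and between -0.04 and 0.10 in DKO, so the groups overlapped there.

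**Figure D2:**
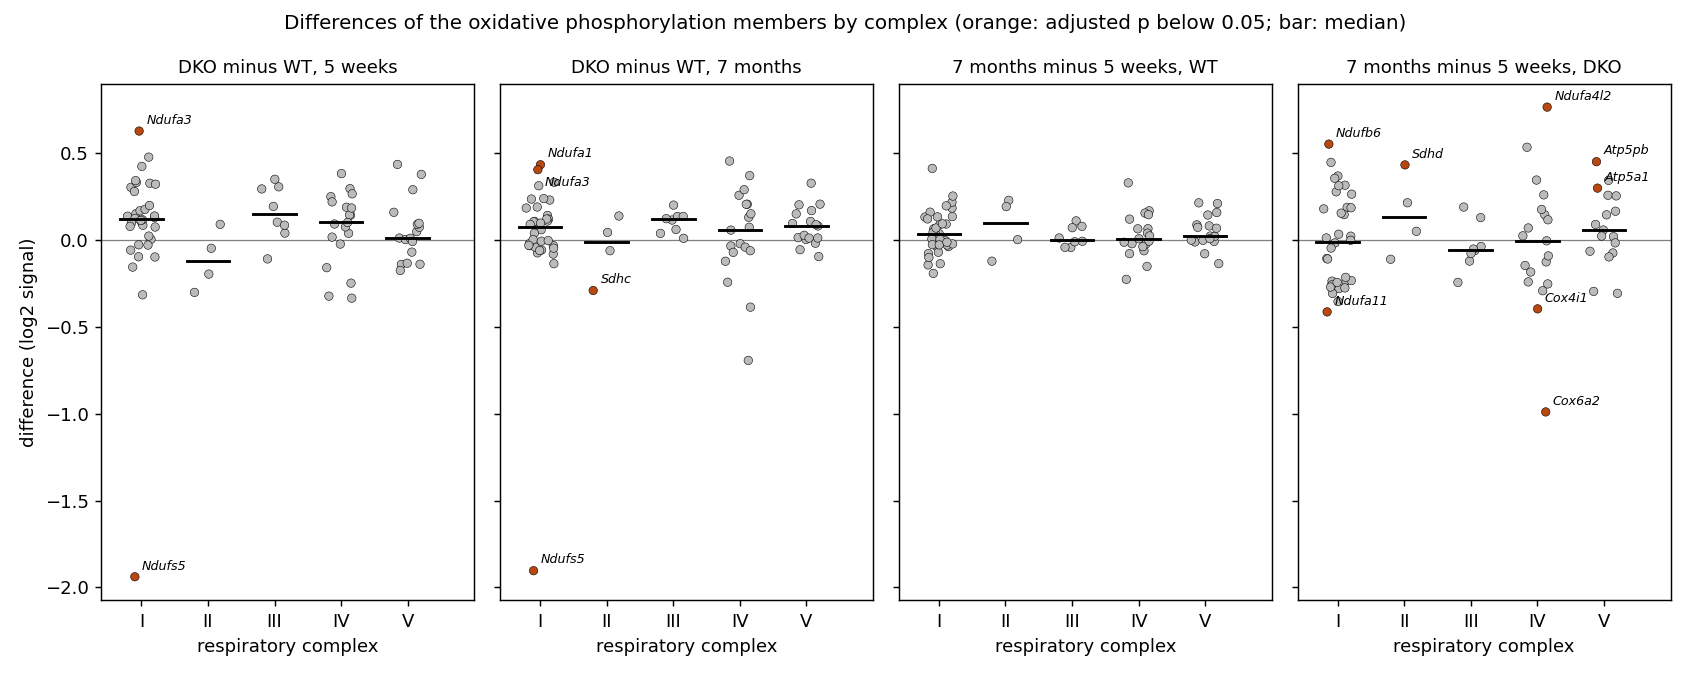
Each point is 1 member, placed by complex, with the difference in log2 signal on the vertical axis, in 4 panels for the 4 comparisons. Orange points passed the test at an adjusted p under 0.05 and black bars are the medians of a complex. Most points lie close to 0, Ndufs5 lies at -1.94 and -1.90 in the genotype panels, and the DKO time panel is spread more widely than the WT time panel.

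Ndufs5 codes for an accessory subunit of complex I. Its probe set read 7.41, 7.31, 7.66 and 7.24 in the 4 WT mice at 5 weeks and 5.47 and 5.46 in the 2 DKO mice. At 7 months it read 7.89, 7.78, 7.79 and 7.82 in WT and 5.84, 5.52, 6.01 and 6.28 in DKO. All 6 DKO arrays lay below all 8 WT arrays. The difference was -1.94 ± 0.16 at 5 weeks, a signal 3.83-fold lower in DKO (limma adjusted p = 3.4e-05), and -1.90 ± 0.13 at 7 months, 3.74-fold lower (adjusted p = 1.88e-06). At 5 weeks this was the lowest difference of all 18820 genes. Exact two-sided permutation of the array labels gave p = 0.0667 and p = 0.0286, the smallest that 2 against 4 and 4 against 4 arrays allow. The change of the genotype difference between the times was 0.03 ± 0.21 and did not pass.

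A second probe set, annotated to Ndufs5 together with its pseudogene Ndufs5-ps, did not follow. It read 6.74, 6.95, 6.91 and 6.98 in WT and 6.83 and 6.68 in DKO at 5 weeks, a difference of -0.14 ± 0.10 that did not pass (limma adjusted p = 0.66 over all probe sets). At 7 months it read 7.11, 7.05, 7.05 and 7.09 in WT and 6.59, 6.84, 6.73 and 6.79 in DKO, a difference of -0.34 ± 0.08 (limma adjusted p = 0.0479). The groups overlapped at 5 weeks and not at 7 months. Within an array, the Ndufs5 probe set minus the shared one averaged 0.51 in WT and -1.29 in DKO at 5 weeks, and 0.74 and -0.82 at 7 months (exact permutation p = 0.0667 and 0.0286, again the smallest possible). The probe sets therefore disagree on the size of the Ndufs5 difference, and which transcript or sequence each one reads was not tested.

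**Figure D3:**
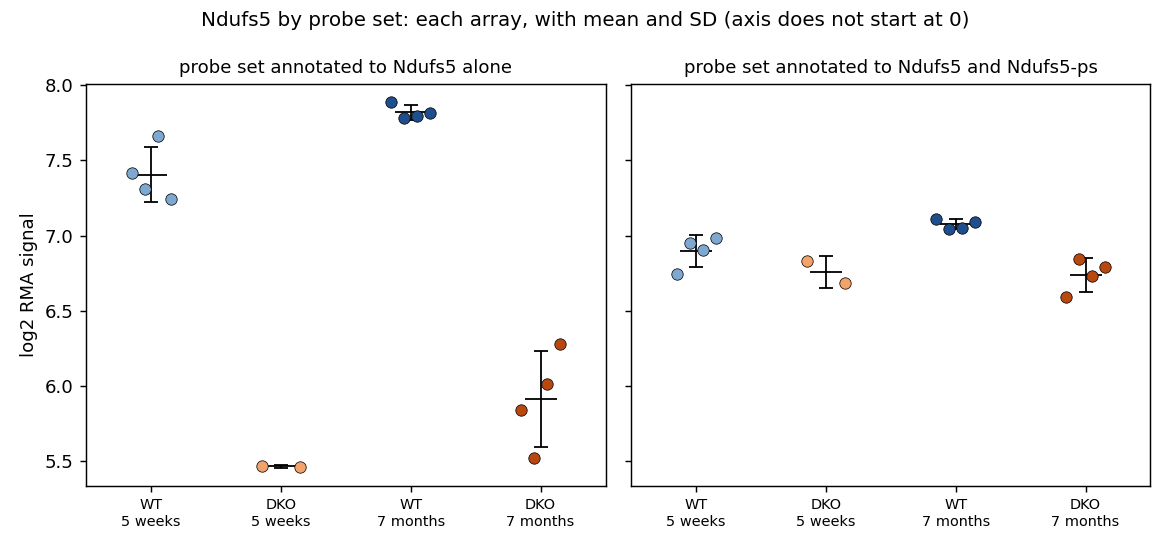
Log2 signal of the probe set annotated to Ndufs5 alone (left) and of the one annotated to Ndufs5 and Ndufs5-ps (right), with 1 point for each array and bars for the group mean and SD. On the left the 6 DKO arrays lie between 5.46 and 6.28 and the 8 WT arrays between 7.24 and 7.89, while on the right all 14 arrays lie between 6.59 and 7.11.

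Ndufa3 and Ndufa1 are small accessory subunits of complex I in the membrane. Ndufa3 read 7.25, 7.21, 7.07 and 7.49 in WT and 7.92 and 7.85 in DKO at 5 weeks, and 7.15, 7.25, 7.15 and 7.32 in WT and 7.54, 7.49, 7.71 and 7.76 in DKO at 7 months. The groups did not overlap at either time. Ndufa3 was higher in DKO at both times, with a difference of 0.63 ± 0.12 at 5 weeks (limma adjusted p = 0.0189). The difference at 7 months was 0.41 ± 0.10 (limma adjusted p = 0.0266). Ndufa1 read 7.68, 7.59, 8.02 and 8.06 in WT and 8.32, 8.08, 8.39 and 8.29 in DKO at 7 months, again without overlap, a difference of 0.43 ± 0.11 (limma adjusted p = 0.0344). At 5 weeks its difference was 0.10 ± 0.13 and did not pass. The Ndufa1 call at 7 months was lost in 6 of 25 alternative settings, with limma adjusted p up to 0.11. That of Ndufa3 at 7 months was lost in 7 of the 25, with limma adjusted p up to 0.0887. The Ndufa3 call at 5 weeks was lost in 5 of the 25, with limma adjusted p up to 0.201. It was lost when either DKO array or WT replicate 2 was left out. The other losses came with only the groups compared in the fit and with the acinar covariate. The difference nevertheless stayed between 0.57 and 0.71 whichever array was left out. At 7 months the count of members called was 10 without DKO replicate 2 and 1, Ndufs5, without DKO replicate 3, and it was 2 without DKO replicate 4 or without WT replicate 1, 2 or 3.

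In complex I as a whole, these 3 genes included, 26 of 34 members lay above 0 at 5 weeks and 20 of 34 at 7 months. Ndufb8 and Ndufs8, named here after their values were seen, had the next smallest p at 5 weeks. Ndufb8, an accessory subunit of the membrane arm, read 6.79, 6.96, 6.69 and 7.18 in WT and 7.40 and 7.37 in DKO, a difference of 0.48 ± 0.13 that did not pass (limma adjusted p = 0.0959). Ndufs8, a core subunit that carries iron-sulphur clusters, differed by 0.42 ± 0.11 (adjusted p = 0.101). The arrays of DKO and WT did not overlap at 5 weeks for 30 of the 82 members of all complexes, which is 36.6% against 21.6% of all genes. At 7 months this held for 9 members, 11% against 10.6%.

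Complex II, succinate dehydrogenase, links the tricarboxylic acid cycle to the respiratory chain. Sdhc, one of its membrane anchors, read 8.32, 8.35, 8.30 and 8.38 in WT and 8.02 and 8.05 in DKO at 5 weeks. At 7 months it read 8.27, 8.10, 8.36 and 8.15 in WT and 7.89, 7.84, 7.99 and 7.99 in DKO. DKO arrays were below all WT arrays of the same time. The difference was of one size at both times, -0.30 ± 0.09 at 5 weeks without passing (limma adjusted p = 0.177) and -0.29 ± 0.08 at 7 months, which passed narrowly (adjusted p = 0.0443). The call at 7 months was lost in 19 of 25 alternative settings, with adjusted p up to 0.129. The catalytic subunits Sdha and Sdhb differed by -0.06 ± 0.08 and 0.14 ± 0.10 at 7 months, and the second anchor Sdhd by 0.04 ± 0.08, and none of these passed.

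No member of complexes III, IV or V passed in either genotype comparison. All 8 complex III members lay above 0 at 7 months, but by 0.01 to 0.20 only. The smallest p belonged to Uqcr10, a small subunit, at 5 weeks (0.29 ± 0.12, limma adjusted p = 0.33) and to Uqcrh, the hinge protein next to cytochrome c1, at 7 months (0.14 ± 0.07, adjusted p = 0.322). A second, dimmer Uqcrh probe set differed by -0.26 ± 0.12 at 7 months, in the opposite direction. In complex IV, Cox4i1 at 5 weeks differed by 0.38 ± 0.11 (adjusted p = 0.127). Cox5a, a nuclear subunit on the matrix side, read 5.63, 5.24, 4.97 and 5.45 in WT and 5.68, 5.72, 5.86 and 5.86 in DKO at 7 months. Its groups were separate by a narrow margin, and the difference of 0.46 ± 0.13 did not pass (limma adjusted p = 0.0559).

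In complex V, Atp5g1 at 5 weeks read 10.09, 10.05, 10.04 and 10.13 in WT and 10.43 and 10.60 in DKO, a difference of 0.44 ± 0.16 (limma adjusted p = 0.284). Atp5g1, Atp5g2 and Atp5g3 code for the same mature c subunit of the rotor ring. The other c subunit genes had smaller differences: Atp5g2 differed by -0.13 ± 0.09 and Atp5g3 by 0.07 ± 0.13 at 5 weeks. Atp5o, the stalk subunit that confers oligomycin sensitivity, read 6.75, 6.73, 6.65 and 6.79 in WT and 7.07, 6.77, 7.14 and 7.24 in DKO at 7 months. One DKO array lay within the WT range, and the difference of 0.33 ± 0.09 did not pass (adjusted p = 0.0591).

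**Figure D4:**
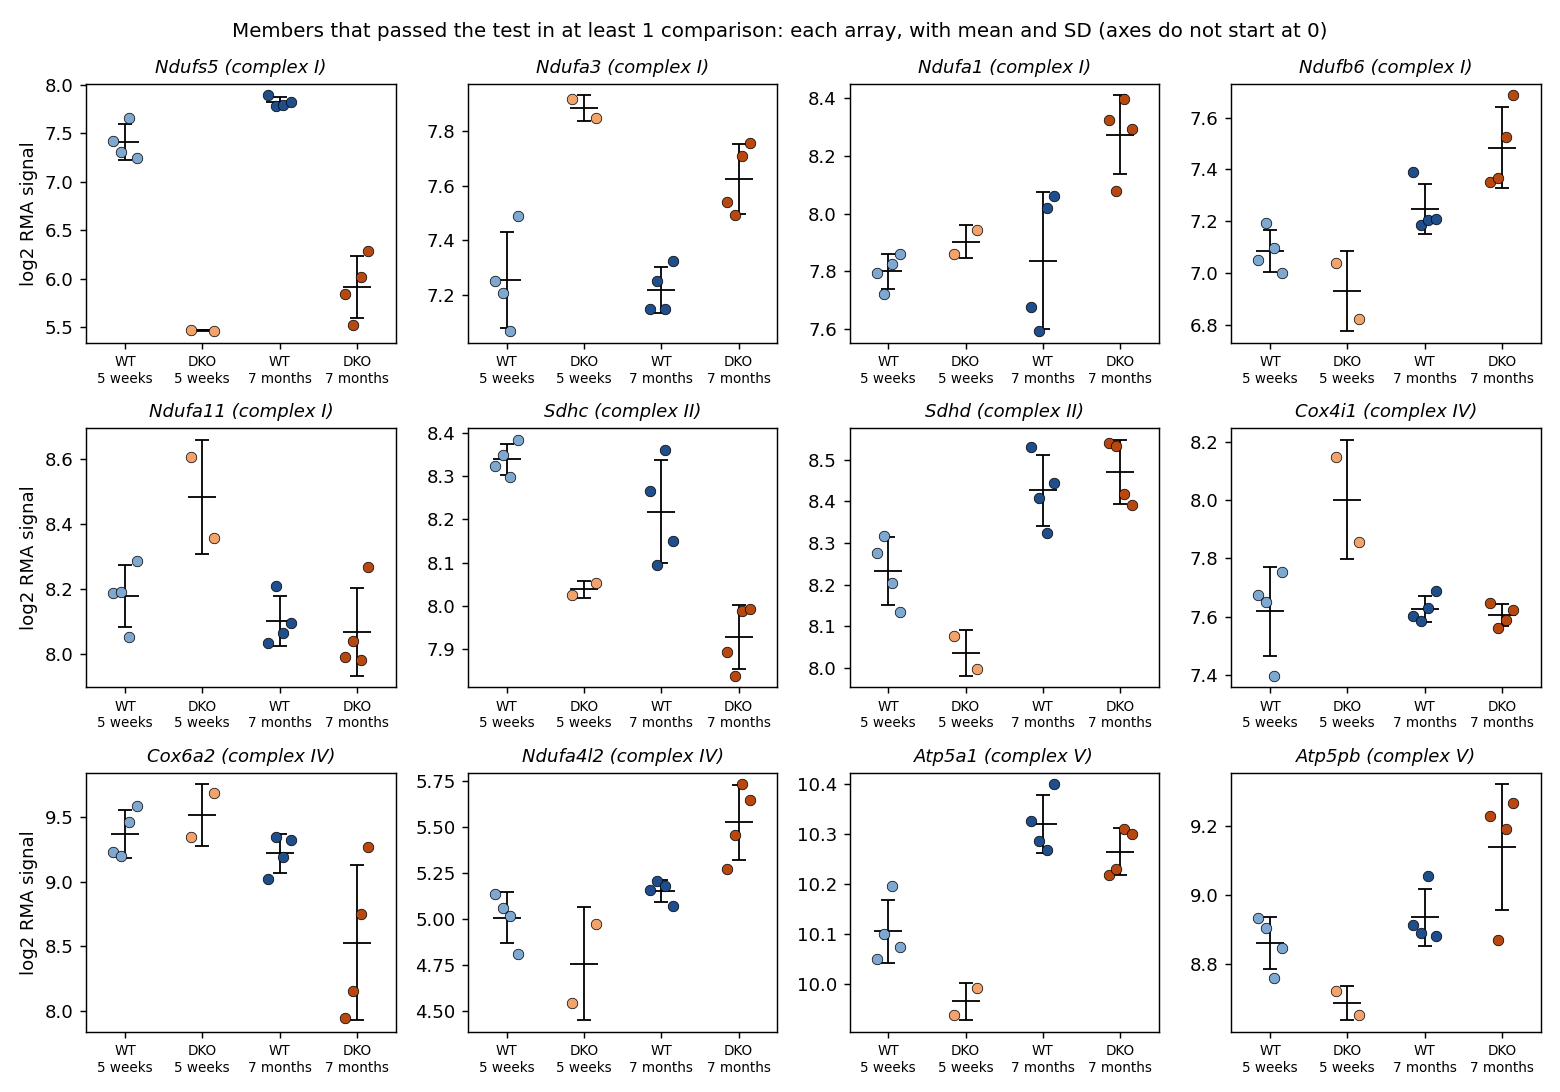
Log2 signal of the 12 members that passed the test in at least 1 comparison, with 1 point for each array and bars for the group mean and SD. The panels have separate axes that do not start at 0. Ndufs5 separates the genotypes at both times, with differences of -1.94 and -1.90, and the largest difference of any other panel is the -0.99 of Cox6a2 over time in DKO.

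Between 5 weeks and 7 months of diet, members were called in DKO islets at a share near that of all genes, and none passed in WT. In DKO, 8 of 82 members passed, 5 higher and 3 lower at 7 months. This is 9.76% against 7.57% of all genes, of which 4.86% were higher and 2.7% lower, so the count does not set the members apart. An unadjusted p under 0.05 was reached by 28 members, 34.1% against 21.5%, and the early and late DKO arrays did not overlap for 37, 45.1% against 26.7%. In WT no member passed by limma, beside 2.37% of all genes, and 8 members had an unadjusted p under 0.05, which is 9.76% against 14.6%. The difference lay within 0.25 of 0 for 79 members in WT and 50 in DKO, and the medians were 0.02 and 0.01. The DKO time comparison uses the same arrays as the genotype comparisons, so the values are not independent of those above. Whether the shift over time differs between genotypes was tested as an interaction. No member passed it by limma, beside 0.0903% of all genes, and 12 had an unadjusted p under 0.05, which is 14.6% against 10.1%.

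The 5 members that rose in DKO islets lay in complexes I, II, IV and V. Ndufa4l2, a paralogue of the complex IV subunit Ndufa4 that is known to be induced by low oxygen, read 4.54 and 4.97 at 5 weeks and 5.27, 5.45, 5.73 and 5.64 at 7 months, a rise of 0.77 ± 0.14 (limma adjusted p = 0.00456). In WT it read 5.13, 5.06, 5.02 and 4.81 and then 5.16, 5.21, 5.18 and 5.07. DKO arrays lay above all WT arrays at 7 months, yet the genotype difference of 0.37 ± 0.12 did not pass (adjusted p = 0.0868), nor did the interaction of 0.62 ± 0.18 (adjusted p = 0.232). Ndufa4 itself differed by 0.26 ± 0.13 over time in DKO without passing.

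Ndufb6, an accessory subunit of complex I, read 7.04 and 6.82 and then 7.35, 7.37, 7.53 and 7.69 in DKO, a rise of 0.55 ± 0.11 (limma adjusted p = 0.00896). Sdhd read 8.08 and 8.0 and then 8.54, 8.53, 8.42 and 8.39, a rise of 0.43 ± 0.09 (adjusted p = 0.0117), beside 0.19 ± 0.08 in WT, which did not pass. None of these early and late arrays overlapped. Atp5pb, which codes for subunit b of the ATP synthase stalk, rose by 0.45 ± 0.11 (limma adjusted p = 0.0247), and its second probe set gave 0.44. Atp5a1, the alpha subunit of the catalytic head, rose by 0.30 ± 0.08 in DKO (adjusted p = 0.0435), beside 0.21 ± 0.07 in WT, which did not pass (adjusted p = 0.139). The Atp5a1 call was lost in 19 of 25 alternative settings, with limma adjusted p up to 0.265. That of Atp5pb was lost in 9 settings, that of Sdhd in 3, and those of Ndufb6 and Ndufa4l2 in 2 each.

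The 3 members that fell in DKO were Cox6a2, Ndufa11 and Cox4i1. Cox6a2, the heart and muscle isoform of its complex IV subunit, read 9.35 and 9.69 at 5 weeks and 7.95, 8.15, 8.75 and 9.27 at 7 months, the widest spread of the 12 called members. It fell by 0.99 ± 0.27 (limma adjusted p = 0.0376). In WT it read 9.02 to 9.35 at 7 months, and 3 of the 4 DKO arrays lay below that range, with a genotype difference of -0.69 ± 0.22 that did not pass (adjusted p = 0.0914). The common isoform Cox6a1 differed by -0.04 ± 0.11 between genotypes at 7 months.

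Cox4i1, the common isoform of a regulatory complex IV subunit, read 8.15 and 7.86 in DKO at 5 weeks and 7.65, 7.56, 7.59 and 7.62 at 7 months, and fell by 0.40 ± 0.11 (limma adjusted p = 0.0391). WT arrays lay between 7.40 and 7.75 at 5 weeks and between 7.59 and 7.69 at 7 months, so it was the DKO arrays at 5 weeks that stood high. Ndufa11, an accessory subunit in the membrane arm of complex I, read 8.61 and 8.36 and then 7.99, 8.04, 7.98 and 8.27, and fell by 0.41 ± 0.11 (adjusted p = 0.0352). Its second probe set gave -0.45. The Cox4i1 call was lost in 18 of 25 alternative settings, that of Cox6a2 in 10 and that of Ndufa11 in 7. These calls lean on the 2 DKO arrays at 5 weeks. Without replicate 1 of them the Cox4i1 difference was -0.25. Without replicate 1 the count of members fell from 8 to 1 and without replicate 2 to 4, it was 3 without DKO replicate 1 or 3 at 7 months and 5 without replicate 4, and it was 0 when only the DKO arrays were fitted.

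Several subunits exist as isoforms made by separate genes, and none of these isoform genes passed the test between genotypes. Cox4i2, the lung isoform, lay between 3.49 and 4.02 on the 14 arrays and differed by 0.21 ± 0.11 at 7 months (limma adjusted p = 0.343). Cox7a2l, a factor in the assembly of respiratory supercomplexes, read 9.51, 9.48, 9.29 and 9.44 in WT and 9.27, 9.27, 8.93 and 8.70 in DKO at 7 months. The groups did not overlap, and the difference of -0.39 ± 0.13 did not pass (adjusted p = 0.109). At 5 weeks Cox7a2l differed by -0.33 ± 0.16. Cox6b1, Cox7a2 and Cox8a, the common isoforms of their subunits, differed by 0.06 ± 0.08, -0.06 ± 0.11 and -0.07 ± 0.07 at 7 months. Their relatives Cox6b2, Cox7a1, Cox8b and Cox8c differed by -0.24 to 0.29 there, at signals below the array median, and none passed.

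Among the genes around the respiratory chain, the regulator Ppargc1a was far lower in DKO than in WT islets at 7 months. Ppargc1a codes for PGC-1alpha, a coactivator that raises the transcription of mitochondrial genes. It read 6.32, 6.00, 6.30 and 6.30 in WT and 5.97 and 5.63 in DKO at 5 weeks, and 6.79, 6.84, 6.69 and 6.48 in WT and 3.47, 4.66, 2.99 and 3.88 in DKO at 7 months. Every DKO array lay below every WT array of its time. The difference was -0.43 ± 0.31 at 5 weeks, which did not pass (limma adjusted p = 0.648), and -2.95 ± 0.25 at 7 months (adjusted p = 6.87e-06), with an interaction of -2.52 ± 0.40 (adjusted p = 0.0197). On the same arrays at 7 months the median member differed by 0.07.

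**Figure D5:**
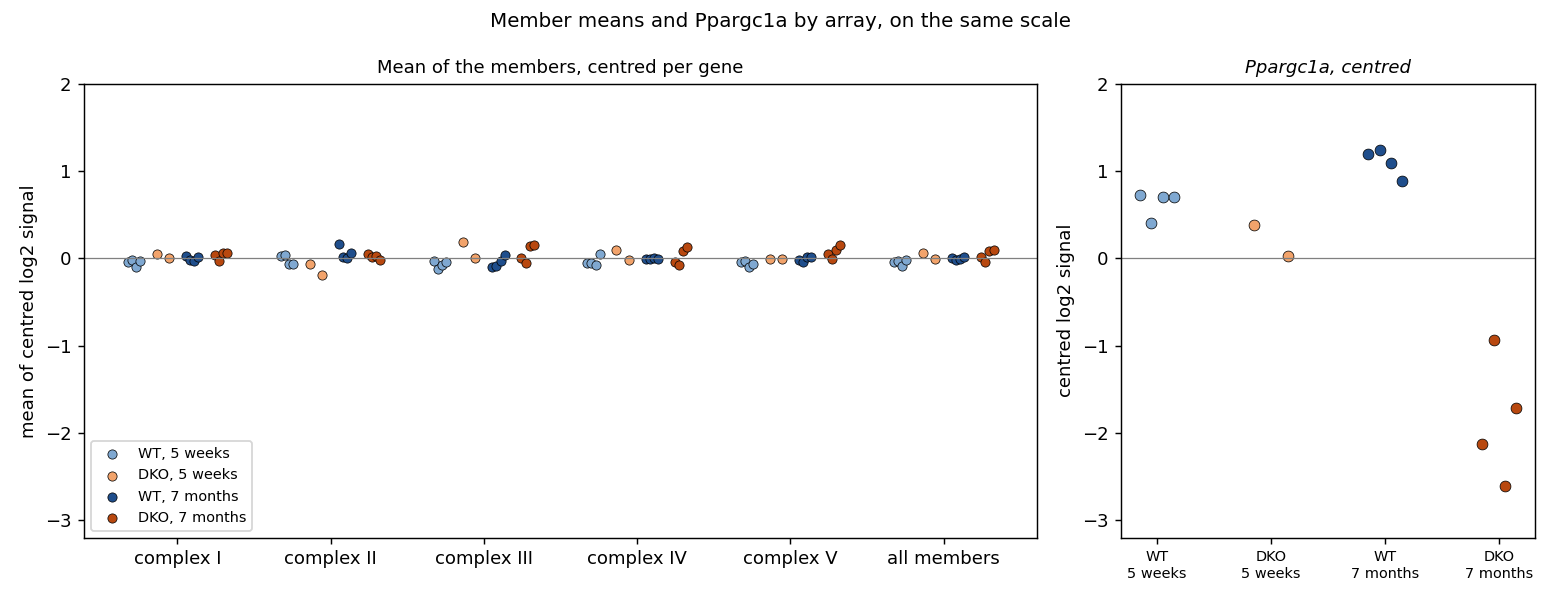
Left, the mean centred log2 signal of the members of each complex and of all 82 members, with 1 point for each array. Right, the centred log2 signal of Ppargc1a on the same vertical scale. The member means of complexes I to V stay between -0.20 and 0.18 on every array, while Ppargc1a on the 4 DKO arrays at 7 months lies below its level on the other 10 arrays.

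None of the other 14 regulators of mitochondrial biogenesis measured passed between genotypes. Esrrg, a nuclear receptor that works with PGC-1alpha, rose over time in WT by 0.61 ± 0.14 (limma adjusted p = 0.0318) and differed by -0.49 ± 0.14 between genotypes at 7 months without passing (adjusted p = 0.0591). Of 18 genes listed as mobile and inner membrane carriers, a list that also holds genes of other functions, Nnt alone passed between genotypes. Nnt, the transhydrogenase that uses the proton gradient to make NADPH and that carries a known deletion in the C57BL/6J substrain, read 6.94 to 7.05 in WT and 8.33 and 8.73 in DKO at 5 weeks, and 7.23 to 7.35 and 8.76 to 9.03 at 7 months. The groups did not overlap, with differences of 1.53 ± 0.11 and 1.61 ± 0.09. With the mean of the Nnt probe sets in place of the brightest, the differences were smaller, 0.92 and 0.90, and still passed. None of 44 assembly factors and none of 15 tricarboxylic acid cycle genes passed between genotypes by limma, with 6 and 0 of them at an unadjusted p under 0.05 at 5 weeks and 4 and 2 at 7 months. Over time in DKO, the assembly factor Coa5 rose by 0.37 and the citrate synthase gene Cs by 0.40. From the list of 18 genes, Coq8a rose by 0.50, Nnt by 0.39 and Etfdh by 0.31.

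Markers of other cells differed between the groups beside these results, and their part in the results was not tested except where stated. In such bulk samples, fewer cells of a type and less RNA per cell cannot be told apart. At 7 months 6 of 9 stellate cell markers and 4 of 8 macrophage markers were higher in DKO, beside 2.44% of all genes. Lower were 3 of 4 alpha, 2 of 4 delta and 2 of 2 PP cell markers, beside 2.27% of all genes, while 0 of 9 beta cell markers passed. Of 8 endothelial markers 2 were called higher and 1 lower. The duct marker Tspan8 was lower, at -1.05, and the erythroid marker Alas2 higher, at 1.38. The mean of the stellate markers, each centred over the arrays, lay between -0.48 and -0.24 in WT and between 0.28 and 0.99 in DKO, that of the macrophage markers between -0.20 and -0.05 and between 0.11 and 0.71, and that of the alpha markers between -0.12 and 0.02 and between -0.74 and -0.56. The beta cell mean lay between 0.03 and 0.09 in WT and read -0.16, 0.12, -0.19 and -0.18 in DKO replicates 1 to 4. DKO replicate 2 thus lay above all WT arrays of that time and the other DKO arrays below them. Of the 9 beta cell markers, 6 differed downward and 3 upward in DKO at 7 months, and 3 had an unadjusted limma p under 0.05. Over time in DKO, where 8 members passed, 3 of 9 stellate, 4 of 8 macrophage and 4 of 8 endothelial markers rose, and 3 of 4 alpha, 2 of 4 delta and 2 of 2 PP cell markers fell, with Rbp4 of the delta list at -2.73 and Pyy of the PP list at -1.63. The remaining delta marker called, Lepr, rose by 0.76, the duct marker Tspan8 fell by 1.35 while the duct marker Krt7 rose by 0.38, and the adipocyte marker Fabp4 and the erythroid marker Alas2 rose by 1.32 and 1.48. At 5 weeks the stellate marker Acta2, the actin of contractile cells, was lower in DKO by -0.98 and no macrophage or alpha marker passed. The mean of 4 T cell markers was 2.12 on DKO replicate 4 at 7 months and between -0.41 and 0.13 on the other 13 arrays, and the count of members called over time in DKO was 5 without that array. No acinar marker passed, but their mean ranged from -2.25 to 0.76 in WT and from 0.13 to 0.54 in DKO at 7 months, and from -1.51 to 0.46 and from 0.97 to 1.34 at 5 weeks. With the acinar mean as a covariate the Ndufs5 difference was -1.94 at 5 weeks and -1.90 at 7 months and kept its call, Ndufa1 kept its call at 7 months, and Ndufa3 differed by 0.64 and 0.41 with adjusted p = 0.0735 and 0.0692.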

How the data were processed

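Islet RNA of 14 mice, 100 ng a sample, was labelled with biotin and hybridised to arrays that read whole transcripts, per the labels. The authors deposited log2 signals made with RMA (which corrects background, normalizes between arrays and summarises probes), per the submitters' processing notes, in which no RMA version is named. The signals were used as deposited. Of 35556 probe sets, 21218 carried 1 gene symbol, 1881 several and 12457 none, and the brightest probe set stood for a gene, which gave 18820 genes (18790 matched by Entrez identifier). In R 4.3.3, limma 3.58.1 (lmFit, eBayes) estimated 1 mean for each of the 4 groups from all arrays together, and p-values were adjusted by Benjamini-Hochberg over all genes within each of 5 comparisons. They measure the spread between mice. The fit was tested on simulated data. Of 50 genes given a difference of 0.585, 22 passed at 5 weeks and 26 at 7 months. Of 50 given a difference of 1, 42 and 44 passed. Smaller differences were not simulated. The number of arrays limits the precision. Exact permutation tests of the array labels were two-sided.

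The members and the gene lists were chosen with earlier results of these data known. Up to 8 members past the threshold in each direction were named in each comparison. The member of smallest p of each complex was named between genotypes. The isoform groups, Tlr2, Tlr4, Nnt and Ppargc1a were named whatever their values. Up to 3 genes past the threshold were named from each list of other mitochondrial genes. Called genes of the ribosomal lists were counted and not named by this rule. Promoters come from RefSeq (GRCm38.p6). Figures were drawn with Python 3.11.15 and matplotlib 3.10.9. Alternatives covered the arrays fitted, the prior, dim genes, probe sets, scaling, blocks, covariates, array weights and each array left out.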

Additional observations from a re-analysis of the deposited data

Results flagged for a closer look

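In 102 groups of 4 arrays, an array was looked for whose gap to its nearest neighbour exceeded Dixon's 95% critical share of the group's range, which chance gives in about 1 of 20 groups. Ndufb6 read 7.39 in WT replicate 1 at 7 months, where the other 3 arrays read 7.19 to 7.21. Cox7a2 read 7.61 in DKO replicate 2 at 7 months, against 7.28 to 7.31 on the others, and Atp5g3 read 8.52 on that same array, against 8.84 to 8.88. Ppargc1a read 6.00 in WT replicate 2 at 5 weeks, against 6.30 to 6.32.

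The genotype difference of Ppargc1a changed between 5 weeks and 7 months, with an interaction of -2.52 ± 0.40 (limma adjusted p = 0.0197). No oxidative phosphorylation subunit passed the same test.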

How the results depend on the processing

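Across 25 alternatives, Ndufs5 kept its direction and its call at both times, between -2.03 and -1.77. None of these alternatives used the probe set shared with Ndufs5-ps, so they do not cover the disagreement between the probe sets. The count of members called at 5 weeks, 2 in the main analysis, was 1 when the fit held no other group, 1 with the acinar covariate, and 1 to 3 with an array left out. At 7 months (4) it was 2 when the fit held no other group, 2 with the acinar covariate, 7 with array weights, and 1 to 10 with an array left out. For time in WT (0) it was 1 when the fit held no other group, 1 with a trended robust prior, and 1 with array weights. For time in DKO (8) it was 0 when the fit held no other group, 14 without dim genes, 4 with the replicate block, 3 with the acinar covariate, 5 with array weights, 5 without both 7-month arrays numbered 4 (chosen after seeing the data), and 1 to 11 with an array left out. The interaction count stayed at 0. Median member differences with each array centred on its median were 0.117 at 7 months, 0.055 over time in DKO and 0.037 for the interaction, where the centring moved the median of all genes to at most 0.07. Over time in DKO the median was -0.046 after quantile normalization and -0.022 to 0.057 with an array left out. Uqcrh at 7 months reversed to -0.064 with the mean of its probe sets. With that mean, Nnt differed by 0.92 at 5 weeks and 0.90 at 7 months, and Ppargc1a over time in DKO by -1.35. The causes were not tested. The replicate block rests on numbers that do not pair the mice: 18 pairs of arrays with the same number correlated at -0.16 to 0.16, and 5 of 14 arrays lay closest to one of their own number. With 2 DKO arrays at 5 weeks, differences that rest on them are the least certain.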
